A study of Mus musculus with 24 samples.

Results

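Digit tips of C57BL/6 mice were compared at 21 and at 12 days after distal amputation, using all 15055 genes of the deposited table. Of the 24 libraries of the study, 8 enter the comparison directly: 4 from distal digit tips at 21 days and 4 from distal digit tips at 12 days. The mice, of an inbred laboratory strain, were 10 to 12 weeks old. The tissue was the hind limb digit tip with its bone, cartilage, marrow, dermis and epidermis in one sample, and total RNA without its ribosomal part was sequenced from it. No genotype or drug separates the groups, so time after amputation is the labelled difference. The other groups, with 4 libraries each, are distal tips at 14 days and proximal tips at 12, 14 and 21 days. Libraries are given below in the order of their replicate numbers. The labels do not say that they came from separate animals, so the spread behind the p-values is that between libraries and may be technical in part.

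In the mouse, the tip of the terminal phalanx regrows after a distal amputation, whereas a cut through the base of that bone heals without regrowth. In regrowth, osteoclasts first erode the bone stump, epidermis then closes over the wound, and a blastema, a mass of dividing mesenchymal cells, forms beneath it and turns into new bone. The question addressed here is which transcripts differ between the time when a blastema is described in this digit and the later time when bone is being rebuilt.

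Values are the deposited whole numbers, which look normalised. Changes are differences of log2(value + 1) at 21 minus 12 days with a standard error, folds are on that same scale, and a gene is called at an adjusted p under 0.05 over all genes (limma). By this test 3584 of 15055 genes were called, or 23.8%, and 5478 had an unadjusted p under 0.05. Of these, 1326 (8.81%) were higher and 2258 (15%) were lower at 21 days. Larger than 2-fold changes were fewer: 113 called genes (0.751%) were higher and 497 (3.3%) lower by that much. The direction of the calls depends on the scaling. Higher genes made up 37.0% of the calls as deposited, 48.6% with median-ratio factors and 20.6% when libraries were scaled to their table totals. The median change of all genes was -0.02 as deposited and -0.09 with table totals. For 3596 genes (23.9%) every library of one group lay above every library of the other. Correlations across genes were at least 0.9843 between 21 day libraries and 0.9808 between 12 day libraries, and at most 0.9747 between a library of one group and a library of the other. Labelled tissues were represented by Krt14 for epidermis (mean value 108565 at 21 days and 126307 at 12 days), Bglap for bone (139 and 212.5) and Hbb-bs for blood and marrow (4472 and 2708). The cartilage collagen gene Col2a1 was low, at 44.0 and 33.2.

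**Figure D1:**
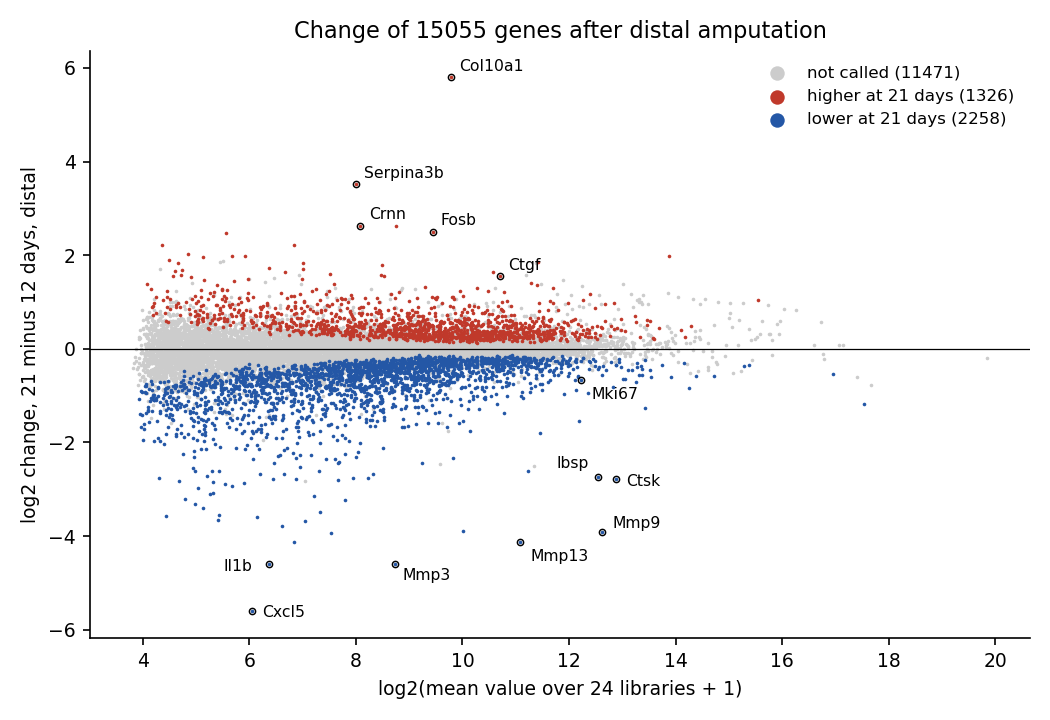
Change of each of 15055 genes after distal amputation (log2 of value + 1, 21 minus 12 days) against its mean value over 24 libraries on a log2 axis. Red points are the 1326 genes called higher at 21 days and blue points the 2258 called lower. Circled genes are described in the text, with Col10a1 at the top (5.80) and Cxcl5 at the bottom (-5.60).

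The genes of inflammation were lower at 21 days. Of 19 cytokine and chemokine genes, 10 are in the table and 8 of those fell, with a median change of -1.81. Cxcl5, a chemokine that attracts neutrophils, had 3, 3, 3 and 5 in the 21 day libraries, against 255, 209, 388 and 101 in the 12 day libraries. That is the largest fall among genes named by rule (log2 change -5.60 ± 0.76, adjusted p = 2.12e-05). Il1b, which encodes interleukin-1 beta, had 16, 9, 13 and 18 at 21 days, against 212, 532, 468 and 293 at 12 days (-4.60 ± 0.59, adjusted p = 1.32e-05). The rule that named both genes required groups without overlap, as found for 23.9% of all genes. For both the lowest 12 day library was many times above the highest 21 day library. Nlrp3, the sensor of the inflammasome that activates interleukin-1 beta, had 12, 9, 9 and 12 at 21 days and 149, 90, 232 and 134 at 12 days (-3.66 ± 0.37). Also lower were Il11 (-2.92 ± 0.36) and Lif (-1.75 ± 0.30), cytokines of the interleukin-6 family, the chemokine genes Cxcl1 (-2.60 ± 0.48) and Ccl2 (-1.88 ± 0.47), Tnf (-1.68 ± 0.41) and Ptgs2 (-1.31 ± 0.35), the inducible cyclooxygenase. Il33 (-0.84 ± 0.51) and Il1a (0.28 ± 0.28) were not called. Several of these genes have low values, and with genes under a mean value of 50 left out the count of lower members was 4.

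Several receptor genes of these signals were among the 15 largest falls named by rule. Il1rl1, the receptor for interleukin-33, had 33, 24, 14 and 62 at 21 days and 949, 193, 632 and 370 at 12 days (-3.93 ± 0.52). Ccr1, a chemokine receptor of myeloid cells, had 29, 37, 22 and 54 at 21 days and 459, 266, 407 and 438 at 12 days (-3.47 ± 0.38). Csf3r, the receptor for granulocyte colony-stimulating factor, had 7, 8, 45 and 9 at 21 days and 84, 114, 170 and 103 at 12 days (-3.09 ± 0.64). The 21 day replicate 3 stood above the other libraries of its group, yet below every 12 day library, as the rule for these falls required. Of 11 neutrophil markers, 3 are in the table and 2 of them fell, Csf3r and Cxcr2 (-0.95 ± 0.25). The other, the interleukin-1 receptor gene Il1r2, had a positive change that was not called (0.40, adjusted p = 0.341). The granule genes of the list are not analysed here, and the summed marker level ran from 345 to 933 at 21 days and from 427 to 724 at 12 days. In bulk tissue, fewer cells of a type and less RNA per cell cannot be told apart.

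Wound epidermis and alarmin genes, which include wound keratins and cornified envelope genes besides alarmins, gave 3 lower members of 15 measured, a share near the 15% lower over all genes. S100a9, a subunit of calprotectin, had 69, 102, 35 and 35 at 21 days and 681, 906, 1489 and 477 at 12 days (-3.88 ± 1.20, adjusted p = 0.0216). Its call ended without 12 day replicate 3 (adjusted p = 0.0572), 21 day replicate 3 (0.0533) or 21 day replicate 4 (0.0536). At 14 days S100a9 ran from 43 to 9378, the widest spread of any of these days. The partner subunit gene S100a8 had 213, 239, 90 and 56 at 21 days and 553, 696, 1069 and 601 at 12 days. The groups did not overlap, but the change was not called (-2.47 ± 0.95, adjusted p = 0.0641) unless only the compared groups were fitted (adjusted p = 0.00354), when 5 members of the list were lower. Lcn2, which encodes the iron-scavenging lipocalin-2, had 13, 7, 3 and 3 at 21 days and 106, 53, 112 and 50 at 12 days (-3.55 ± 0.55). Slpi, an inhibitor of leukocyte proteases, had 30, 55, 32 and 29 at 21 days and 362, 195, 612 and 299 at 12 days (-3.22 ± 0.60). The wound keratin gene Krt17 was not called (-0.32 ± 0.37), with 18392 ± 3412 at 21 days and 23858 ± 8908 at 12 days (SD, 4 libraries each), nor were Krt6a (-0.13 ± 0.26) and Krt16 (0.61 ± 0.36).

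Matrix-degrading enzymes fell alongside. Of 18 measured proteases and inhibitors, 9 were lower and 0 higher, with a median change of -0.67. At an unadjusted p under 0.05 these counts were 11 and 1 (limma). Mmp3, or stromelysin-1, had 64, 46, 23 and 54 at 21 days and 2816, 378, 1495 and 850 at 12 days (-4.59 ± 0.57, adjusted p = 9.81e-06). Mmp13, a collagenase of bone and cartilage, had 323, 210, 168 and 586 at 21 days and 5663, 2583, 6962 and 6092 at 12 days (-4.12 ± 0.44, adjusted p = 2.45e-06). Every 12 day library exceeded every 21 day library in both, as was required of the largest falls named by rule. Also lower were the macrophage elastase gene Mmp12 (-3.78 ± 0.84), the urokinase gene Plau (-1.22 ± 0.17) and its receptor Plaur (-1.24 ± 0.27). So was an inhibitor, Timp1, with 232 ± 70.0 at 21 days and 1238 ± 276 at 12 days (-2.43 ± 0.29). The stromal enzymes Mmp2 (-0.33 ± 0.13) and Mmp14 (-0.31 ± 0.12) and the inhibitor Timp2 (0.05 ± 0.09) were not called. Mmp11 was not called either (0.89 ± 0.34), and 1 member was called higher without 12 day replicate 3, 21 day replicate 2 or 21 day replicate 4.

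Osteoclast genes had the lowest median change of any list, at -2.61. Of 15 measured members 12 were lower and 0 higher (13 and 0 at an unadjusted p under 0.05, limma), and the summed level ran from 8045 to 14077 at 21 days and from 23068 to 59756 at 12 days. Dcstamp and Ocstamp are needed for the fusion of precursors into multinucleate osteoclasts. Dcstamp had 12, 6, 8 and 56 at 21 days and 343, 106, 333 and 346 at 12 days (-4.12 ± 0.67), and Ocstamp had 10, 22, 12 and 61 at 21 days and 320, 122, 354 and 394 at 12 days (-3.68 ± 0.62). In both genes 21 day replicate 4 was the highest of its group and 12 day replicate 2 the lowest of its own. The same libraries were the highest at 21 days and the lowest at 12 days for enzymes that dissolve bone. Mmp9, a gelatinase, had 798, 600, 589 and 2789 at 21 days and 20523, 6390, 14770 and 21498 at 12 days (-3.92 ± 0.63). Ctsk, the collagen-cutting cathepsin K, had 1878, 1469, 1288 and 3815 at 21 days and 22397, 5700, 12532 and 19276 at 12 days (-2.79 ± 0.44). Acp5, tartrate-resistant acid phosphatase, had 527, 648, 874 and 1443 at 21 days and 6857, 2793, 4377 and 7202 at 12 days (-2.61 ± 0.48). Groups did not overlap in any of these 5 genes, which the rule for the largest falls required of Dcstamp, Ocstamp and Mmp9.

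For the signal that drives osteoclast formation, transcripts of both ligand and receptor were lower. Tnfsf11, the ligand RANKL, had 56, 67, 40 and 93 at 21 days and 441, 214, 544 and 401 at 12 days (-2.61 ± 0.42, adjusted p = 0.000125). Tnfrsf11a, its receptor RANK, had 121, 187, 85 and 170 at 21 days and 508, 325, 345 and 574 at 12 days (-1.65 ± 0.25). Nfatc1, the transcription factor downstream, changed less (-0.39 ± 0.13). Proton pump subunits used for acidification fell, with Tcirg1 at 508 ± 88.3 and 1765 ± 566 (-1.75 ± 0.25) and Atp6v0d2 at 83.0 and 545.8 (-2.76 ± 0.54) at 21 and 12 days. The list members that were not called were Clcn7 (-0.17 ± 0.08), Ostm1 (-0.03 ± 0.07) and Car2 (0.20 ± 0.29). At 14 days the group means of Mmp9 (7747), Ctsk (7728) and Acp5 (2766) lay between those of the other days.

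**Figure D2:**
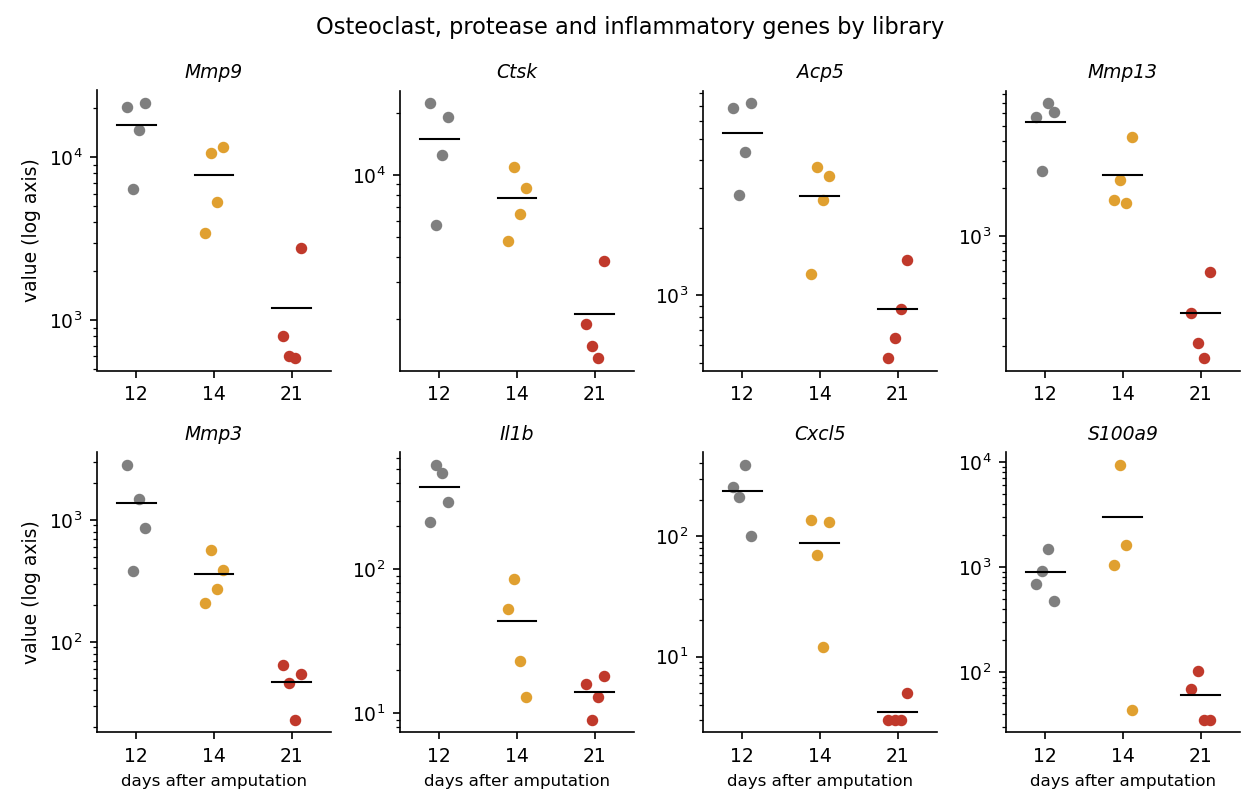
Values of 8 genes of bone resorption, matrix breakdown and inflammation in each distal library at 12, 14 and 21 days, on log axes. Points are libraries and bars are group means of 4. In all 8 genes every 21 day library lies below every 12 day library, and S100a9 spreads from 43 to 9378 at 14 days. Such separation was required of the largest falls named by rule, which are all of these genes but Ctsk and Acp5.

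Macrophage genes did not move as one. Of 16 measured, 4 were lower and 1 was higher, against 15% lower and 8.81% higher over all genes. The median was -0.24. Csf1r, the receptor for macrophage colony-stimulating factor, which osteoclasts also carry, had 352, 453, 336 and 663 at 21 days and 1732, 841, 1112 and 1738 at 12 days (-1.57 ± 0.26). Ccr2, a marker of recruited monocytes, had 37, 19, 16 and 22 at 21 days and 78, 75, 74 and 75 at 12 days (-1.71 ± 0.36). Cd68 (-1.23 ± 0.30) and Fcgr1 (-1.67 ± 0.47) fell too, the second only while 21 day replicate 1 was included (adjusted p = 0.0508 without it). Fcgr1 values were low, with 2, 5, 6 and 5 at 21 days and 7, 19, 22 and 20 at 12 days. The complement genes C1qa (-0.21 ± 0.22), C1qb (-0.03 ± 0.30) and C1qc (-0.18 ± 0.29) and the mannose receptor gene Mrc1 (-0.31 ± 0.28) were not called. The higher member was Mertk, a receptor for apoptotic cells (0.50 ± 0.18), a call that ended without 12 day replicate 1 or 4 or 21 day replicate 2, 3 or 4. Summed macrophage levels ran from 5902 to 7217 at 21 days and from 6233 to 7403 at 12 days.

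Genes of dividing cells were lower at 21 days. Of 24 mitosis genes 23 fell, with a median change of -0.98, and of 25 DNA replication genes 17 fell, with a median of -0.64. At an unadjusted p under 0.05 all members of both lists were lower (limma). Aurka, the Aurora A kinase of the spindle poles, had 82, 97, 92 and 100 at 21 days and 221, 279, 454 and 248 at 12 days (-1.63 ± 0.18, adjusted p = 3.42e-06). Prc1, which bundles microtubules at the spindle midzone, had 388, 411, 473 and 468 at 21 days and 844, 944, 1339 and 932 at 12 days (-1.20 ± 0.13). Cdk1, the kinase that drives entry into mitosis, had 338, 344, 340 and 439 at 21 days and 674, 647, 1034 and 778 at 12 days (-1.08 ± 0.13). In each of these genes 12 day replicate 3 was the highest library, and no values overlapped. Cdc20, an activator of the anaphase-promoting complex, had 247, 300, 361 and 325 at 21 days and 543, 650, 1146 and 655 at 12 days (-1.23 ± 0.17). Kif20a, a kinesin of cytokinesis, changed by -1.17 ± 0.13. Mki67, the Ki-67 proliferation marker, had 3093, 3684, 4556 and 4092 at 21 days and 6382, 5185, 7112 and 5871 at 12 days (-0.68 ± 0.13, adjusted p = 0.000883).

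Mitotic genes are known to share promoter elements, a CCAAT box and the CHR element TTTGAA, through which they are repressed in resting cells and induced in G2. The 250 bases before the RefSeq start site (GRCm38.p6) are printed for 4 of the fallen genes, 5′ to 3′ on the gene's strand, to show these letters. The start is that of the first promoter listed for the gene, which for Aurka lies 316 bases and for Prc1 6 bases inside the gene's outer end, so the Aurka window is within the gene's span. In the sequences capitals mark CCAAT or TTTGAA on either strand (ATTGG is CCAAT on the opposite strand). They lie at chr7:80294201-80294450 on the plus strand for Prc1, and on the minus strand at chr2:172370571-172370820 for Aurka, chr10:69352913-69353162 for Cdk1 and chr4:118437344-118437593 for Cdc20.
Prc1: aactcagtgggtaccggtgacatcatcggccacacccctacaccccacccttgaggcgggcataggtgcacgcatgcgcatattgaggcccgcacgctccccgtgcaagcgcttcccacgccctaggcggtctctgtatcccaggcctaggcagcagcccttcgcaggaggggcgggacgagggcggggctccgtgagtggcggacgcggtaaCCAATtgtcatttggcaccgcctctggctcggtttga
Aurka: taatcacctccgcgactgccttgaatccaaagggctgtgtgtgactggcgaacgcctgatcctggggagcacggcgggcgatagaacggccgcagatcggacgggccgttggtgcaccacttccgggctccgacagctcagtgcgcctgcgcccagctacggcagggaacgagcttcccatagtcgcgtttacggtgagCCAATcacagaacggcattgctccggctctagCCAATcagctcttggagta
Cdk1: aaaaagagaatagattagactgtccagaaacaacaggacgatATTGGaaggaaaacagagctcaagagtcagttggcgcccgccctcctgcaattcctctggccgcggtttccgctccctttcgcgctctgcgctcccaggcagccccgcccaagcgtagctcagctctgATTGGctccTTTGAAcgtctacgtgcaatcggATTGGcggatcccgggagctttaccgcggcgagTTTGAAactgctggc
Cdc20: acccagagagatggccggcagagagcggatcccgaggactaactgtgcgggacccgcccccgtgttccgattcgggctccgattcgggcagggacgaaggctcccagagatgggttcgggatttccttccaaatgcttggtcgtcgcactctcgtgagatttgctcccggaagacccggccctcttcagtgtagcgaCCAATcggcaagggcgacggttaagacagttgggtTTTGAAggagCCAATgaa
CCAAT stands within 100 bases before the start in all 4. Cdk1 holds 3 copies, all on the opposite strand, starting 208, 80 and 48 bases before the start, and TTTGAA copies at -71 and -15. In Prc1 a TTTGAA begins at -5 and runs across the start, and in Aurka one begins at 32 after it, so both lie partly or wholly outside the printed letters. Over windows of 300 bases, from 250 before to 50 after the start, CCAAT on either strand was found in 37.9% of 27025 promoters, TTTGAA in 18.1% and both in 7.12%. Of 19 mitosis genes with a promoter in that set, 16 held CCAAT, 13 held TTTGAA and 13 held both. Copies of CCAAT and TTTGAA do not overlap in the 4 printed promoters. These matches describe letters and not binding.

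The DNA replication genes that fell include parts of origin licensing and of nucleotide supply. Orc1, a subunit of the origin recognition complex, had 38, 29, 32 and 28 at 21 days and 94, 52, 64 and 87 at 12 days (-1.17 ± 0.16). Cdt1, the licensing factor, had 165, 203, 185 and 197 at 21 days and 420, 279, 292 and 343 at 12 days (-0.81 ± 0.13). Rrm2, a subunit of ribonucleotide reductase, had 546, 451, 478 and 597 at 21 days and 975, 800, 1078 and 913 at 12 days (-0.86 ± 0.13). The helicase subunit gene Mcm4 changed by -0.68 ± 0.10. Cdc6, another licensing factor, was not called (-0.52, adjusted p = 0.061). At 14 days the group means of Orc1 (63.8), Cdt1 (262), Rrm2 (751) and Mki67 (4664) were between those of the other days. Ribosome biogenesis, which supplies growing cells, changed less: 9 of 17 members fell and 0 rose (12 and 0 at an unadjusted p under 0.05, limma), with a median of -0.26. Nop2, a nucleolar methyltransferase, had 899, 1011, 849 and 923 at 21 days and 1187, 1251, 1114 and 1133 at 12 days (-0.35 ± 0.07). Utp20 (-0.30 ± 0.07), Dkc1 (-0.29 ± 0.07) and Bop1 (-0.25 ± 0.05) fell by similar amounts. Myc, an activator of ribosome production, was not called (0.19 ± 0.14).

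Some bone-forming genes were lower at 21 than at 12 days, and 16 of 18 had their highest mean at 14 days, with Bmp8a and Dlx5 highest at 21 days. Of 18 measured osteoblast and bone matrix genes 6 fell and 1 rose, with a median change of -0.55 for 21 against 12 days, 1.12 for 14 against 12 days and -1.92 for 21 against 14 days. Ibsp, bone sialoprotein, had 1198, 857, 470 and 1163 at 21 days and 2962, 6219, 12519 and 4729 at 12 days, with 6894, 21381, 15277 and 15421 at 14 days. The change was -2.73 ± 0.55 (adjusted p = 0.00113). Sp7, the osteoblast transcription factor osterix, had 151, 103, 50 and 116 at 21 days and 169, 620, 740 and 419 at 12 days (-2.11 ± 0.48). In Sp7 the 12 day replicate 1 stood near the 21 day values. Spp1, osteopontin, had 1080, 855, 756 and 1122 at 21 days and 4456, 2624, 3309 and 2989 at 12 days (-1.80 ± 0.37). Alpl, alkaline phosphatase, had 966, 875, 340 and 791 at 21 days and 806, 2452, 3077 and 1715 at 12 days, so that its groups overlapped (-1.38 ± 0.45, adjusted p = 0.0303). The Alpl call ended without 12 day replicate 2 (adjusted p = 0.0823), 3 (0.102) or 4 (0.0526) or 21 day replicate 3 (0.117). The count of 6 lower members became 3 without 12 day replicate 2, 12 day replicate 3 or 21 day replicate 3.

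Later bone genes were scattered. Bglap, osteocalcin, had 88, 311, 24 and 133 at 21 days and 20, 452, 270 and 108 at 12 days, a change of -0.40 ± 0.85 that was not called and whose sign turned without 12 day replicate 2 (0.20) or 21 day replicate 3 (0.26). At 14 days it had 1740, 1432, 530 and 598, above every library of the other days. Dmp1, an osteocyte matrix gene, had 67, 171, 27 and 58 at 21 days and 26, 478, 450 and 153 at 12 days (-1.38 ± 0.71, adjusted p = 0.161). It was called without 12 day replicate 1 (-2.28, adjusted p = 0.00897). The 12 day replicate 1 was thus the lowest of its group for Ibsp, Sp7, Alpl, Bglap and Dmp1, while its values for Ctsk and Mmp3 were the highest of its group. Of 4 measured osteocyte genes 1 was called, Pdpn (-1.15 ± 0.23), and 3 without that library. The collagen I genes Col1a1 (-0.77 ± 0.30) and Col1a2 (-0.60 ± 0.30) and the master regulator Runx2 (-0.64 ± 0.25) were not called. The higher member was Bmp8a, a bone morphogenetic protein (0.92 ± 0.31), with 0 higher members without 12 day replicate 1 or 4 or 21 day replicate 2 or 4.

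**Figure D3:**
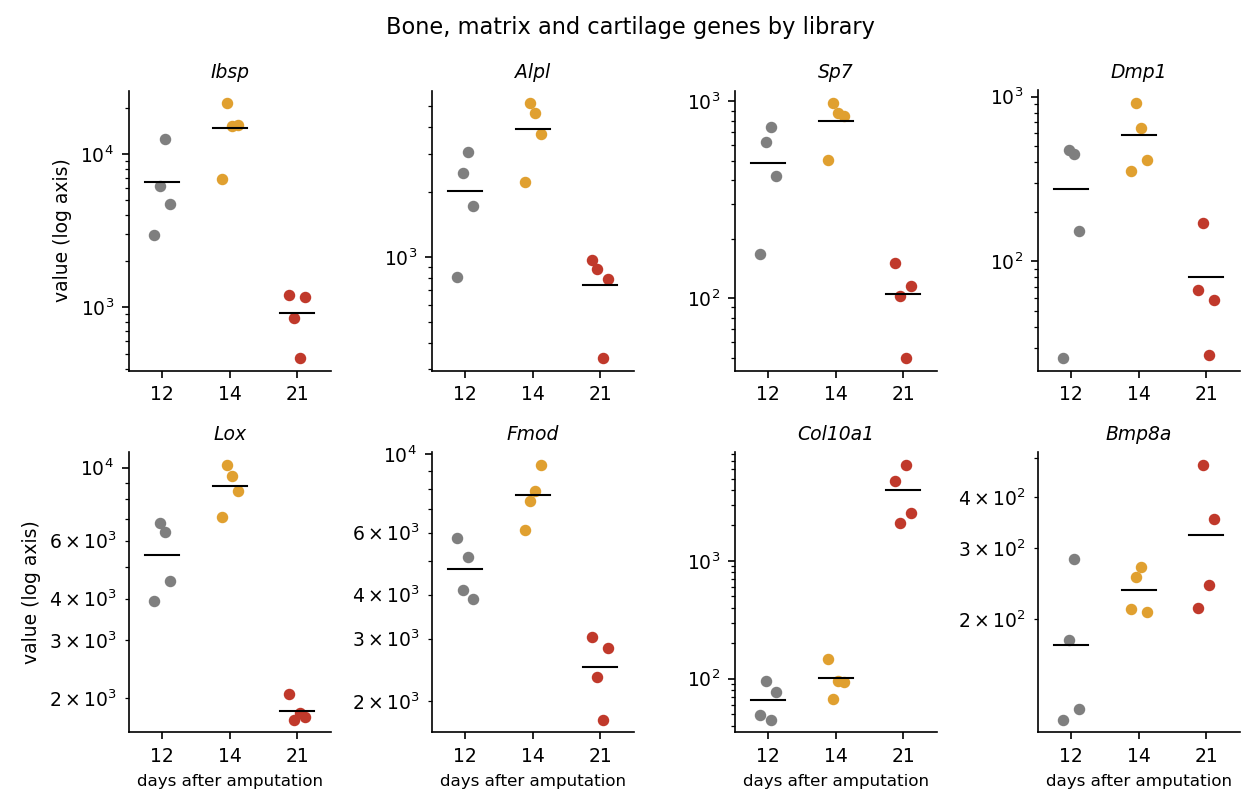
Values of 8 bone, matrix and cartilage genes in each distal library at 12, 14 and 21 days, on log axes. Points are libraries and bars are group means of 4. Ibsp, Alpl, Sp7, Dmp1, Lox and Fmod have their highest mean at 14 days, whereas Col10a1 lies between 45 and 148 at 12 and 14 days and between 2091 and 6507 at 21 days.

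The largest rise was that of a cartilage collagen. Col10a1, collagen X, the product of hypertrophic chondrocytes (chromosome 10, 34389981 to 34397085), had 4762, 2091, 6507 and 2526 at 21 days and 49, 95, 45 and 77 at 12 days. This was a 55.5-fold rise (5.80 ± 0.65, adjusted p = 3.39e-06), with 148, 67, 96 and 93 at 14 days. Few other cartilage genes were called. Of 16 measured, 3 rose (Col10a1, Col9a2 and Sox6) and 0 fell, with 3 and 1 at an unadjusted p under 0.05 (limma). Col9a2, a chain of the fibril-associated collagen IX, had 152, 45, 60 and 64 at 21 days and 10, 20, 19 and 24 at 12 days (1.98 ± 0.51). Sox6, a transcription factor of chondrocytes, had 272, 396, 465 and 500 at 21 days and 259, 217, 225 and 232 at 12 days (0.77 ± 0.19). The defining genes of cartilage were low or did not pass: Col2a1 had 16, 32, 69 and 59 at 21 days and 24, 25, 48 and 36 at 12 days (0.25 ± 0.74). Acan, aggrecan, had 2302, 729, 996 and 734 at 21 days and 1207, 2085, 1344 and 912 at 12 days (-0.33 ± 0.43). One cartilage gene was called lower without 12 day replicate 1 or without 21 day replicate 3. The median over the list was 0.22, against -0.02 over all genes.

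Fibrous matrix genes moved in both directions. Of 21 measured fibrosis and myofibroblast genes 10 fell and 6 rose, with a median of -0.48. Lox, the enzyme that cross-links collagen, had 2053, 1720, 1800 and 1747 at 21 days and 3949, 6809, 6374 and 4540 at 12 days (-1.53 ± 0.21). Cthrc1, a secreted protein of activated fibroblasts, had 211, 212, 152 and 179 at 21 days and 404, 774, 916 and 434 at 12 days (-1.66 ± 0.26). Tnc, tenascin-C, a matrix protein of wounds, changed by -1.27 ± 0.21, Fbn1, fibrillin-1, by -0.65 ± 0.13 and Col3a1 by -0.55 ± 0.19. Among those that rose, Ctgf, a matricellular growth factor partner, had 2641, 2778, 2071 and 2534 at 21 days and 910, 804, 717 and 996 at 12 days (1.55 ± 0.19, adjusted p = 6.7e-06). Col8a1, a short-chain collagen, had 2838, 2289, 3118 and 1906 at 21 days and 862, 1311, 709 and 992 at 12 days (1.40 ± 0.19). Neither overlapped between groups, which the rule for the largest rises required of Ctgf. Thbs1, thrombospondin-1, had 8100, 5300, 6841 and 6553 at 21 days and 3338, 4071, 2955 and 3302 at 12 days (0.96 ± 0.20). Postn, periostin, was not called, with 11154 ± 3170 at 21 days and 15020 ± 2910 at 12 days (SD, 4 libraries each, -0.45 ± 0.23). Without 12 day replicate 1 there were 3 higher members, and without 21 day replicate 3 there were 6 lower ones.

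In tendon and ligament genes 1 of 12 rose and 1 fell, against 8.81% higher and 15% lower over all genes. Fmod, fibromodulin, had 3035, 2337, 1769 and 2829 at 21 days and 5784, 4135, 5103 and 3896 at 12 days (-0.94 ± 0.20). Ogn, osteoglycin, had 480, 505, 492 and 582 at 21 days and 188, 462, 320 and 224 at 12 days (0.87 ± 0.26, adjusted p = 0.0174), a call that ended without 12 day replicate 1 (adjusted p = 0.0752) or 4 (0.0579). Tnmd, tenomodulin, was not called, with 138, 206, 77 and 177 at 21 days and 61, 113, 125 and 93 at 12 days (0.56 ± 0.37). Scx, the tendon transcription factor, was not called either (-0.05 ± 0.10). Col8a2, a second collagen VIII chain, had 1384, 1369, 1291 and 2139 at 21 days and 616, 1195, 928 and 617 at 12 days (0.91 ± 0.28). Its call ended without 12 day replicate 1 (adjusted p = 0.077), 12 day replicate 4 (0.0754) or 21 day replicate 4 (0.0839).

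Endothelial genes were lower at 21 days. All 14 had a negative change and 9 were called, with a median of -0.72. Kdr, the main receptor for vascular endothelial growth factor, had 287, 317, 198 and 385 at 21 days and 593, 644, 804 and 709 at 12 days (-1.24 ± 0.19, adjusted p = 6.2e-05). Plvap, a component of capillary fenestrae, had 503, 439, 337 and 621 at 21 days and 1030, 835, 1037 and 929 at 12 days (-1.04 ± 0.16). Eng (-0.99 ± 0.15), Flt1 (-0.98 ± 0.17), Cdh5 (-0.81 ± 0.16) and Pecam1 (-0.69 ± 0.17) fell with no overlap between groups. In Kdr and Plvap 21 day replicate 3 was the lowest library and 21 day replicate 4 the highest of its group. Group means at 14 days were 733 for Kdr and 1102 for Plvap, above both other days. Of 11 pericyte and smooth muscle genes 3 fell, against 15% of all genes, with a median of -0.10. Mcam had 556, 642, 466 and 938 at 21 days and 1337, 1335, 1962 and 1618 at 12 days (-1.29 ± 0.19). Abcc9 (-1.23 ± 0.21) and Kcnj8 (-1.45 ± 0.39), which encode the subunits of a potassium channel of pericytes, were the others.

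Immediate early genes, which are induced within minutes of a stimulus or of tissue handling, were higher in part. Of 14 measured 5 rose and 0 fell, with 9 and 0 at an unadjusted p under 0.05 (limma), and 13 had a positive change. Fosb, a subunit of the AP-1 transcription factor, had 1287, 786, 2568 and 1960 at 21 days and 308, 333, 211 and 226 at 12 days (5.66-fold, adjusted p = 2.08e-05). Dusp1, a phosphatase that switches off stress kinases, had 2145, 2446, 2336 and 2673 at 21 days and 793, 714, 902 and 660 at 12 days (1.65 ± 0.16, adjusted p = 1.1e-06). The groups were separate in these genes, as was required of the largest rises named by rule. Nr4a1, a nuclear receptor, had 707, 404, 915 and 765 at 21 days and 171, 189, 221 and 194 at 12 days (1.79 ± 0.26). Atf3, a stress transcription factor, had 209, 169, 327 and 326 at 21 days and 62, 59, 74 and 85 at 12 days (1.82 ± 0.37). Fos rose as well (0.99 ± 0.35), while Junb (0.05 ± 0.15), Ier2 (0.18 ± 0.12) and Egr1 (0.39 ± 0.31) were not called. At 14 days Fosb (mean 252), Dusp1 (820) and Nr4a1 (236) were near their 12 day means. Tissue handling on each day is not described per library, and its part in these values was not tested. Nfil3, a transcription factor of the circadian and immune systems, had 696, 412, 608 and 658 at 21 days and 181, 199, 195 and 202 at 12 days (1.58 ± 0.17).

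Among other large rises was Crnn, cornulin of the upper epidermis, with 350, 658, 511 and 438 at 21 days and 62, 93, 67 and 87 at 12 days (2.63 ± 0.71). Cryba4, a crystallin gene, had 243, 431, 186 and 557 at 21 days and 50, 91, 92 and 54 at 12 days (2.21 ± 0.36). Groups did not overlap in either gene, again a condition of the rule for the largest rises. Trpc6, a cation channel, had 178, 93, 181 and 119 at 21 days and 13, 58, 69 and 66 at 12 days (1.64 ± 0.37), or 1.09 without 12 day replicate 1. The predicted gene Gm37797 had 59808, 30541, 26635 and 81764 at 21 days and 8216, 11435, 9970 and 17459 at 12 days (1.98 ± 0.44). Cybrd1, a ferric reductase, had 5372, 7822, 4543 and 12592 at 21 days and 705, 2718, 4069 and 1756 at 12 days (1.86 ± 0.60, adjusted p = 0.0261). Its call ended without 12 day replicate 1 (adjusted p = 0.11) or 4 (0.0548) or 21 day replicate 2 (0.0553) or 4 (0.0846). A pair of rises was carried by few libraries. Serpina3b, a serine protease inhibitor, had 15, 22, 863 and 305 at 21 days and 8, 6, 12 and 6 at 12 days (3.51 ± 1.07), and was not called without 21 day replicate 3 (adjusted p = 0.091) or 4 (0.071). Far2, a fatty acyl reductase of wax synthesis, had 105, 45, 816 and 331 at 21 days and 27, 30, 38 and 26 at 12 days (2.62 ± 0.76), and was not called without 21 day replicate 3 (adjusted p = 0.0681).

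Nail and epidermal genes gave few calls. All 17 hard keratin and nail matrix genes had a positive change, with a median of 0.76. But 1 was called higher, against 8.81% of all genes: Dlx3, a nail and hair transcription factor (0.78 ± 0.18). The count was 5 with a replicate block, 4 with only the compared groups and 2 without 21 day replicate 2. Krt33b had 106872, 97350, 73709 and 206394 at 21 days and 40031, 70269, 73203 and 71752 at 12 days (0.86 ± 0.49, adjusted p = 0.213). The 21 day replicate 4 was far above its group in Krt33b and in Krt81, where it reached 197756 against 60619 to 90985 in the others. Hard keratin genes resemble each other, and how reads shared by several of them were counted is unknown here. Lef1, a Wnt effector of the nail matrix, was not called (0.27 ± 0.44), and its sign turned without 12 day replicate 1 (-0.04). Of 21 epidermis genes 2 fell, against 15% lower over all genes: Krt2 (-1.17 ± 0.41) and Itgb4 (-0.46 ± 0.15), with a median of 0.23. Both calls depended on single libraries: 0 were lower without 12 day replicate 4 and 1 without any other single library, and up to 3 were higher, without 21 day replicate 1. Krt18, a keratin of simple epithelia listed for sweat glands, had 7, 3, 4 and 5 at 21 days and 84, 58, 11 and 326 at 12 days (-3.58 ± 1.27, adjusted p = 0.0441). That call ended without any one of 7 libraries, with adjusted p between 0.0624 and 0.145, 12 day replicate 3 being the exception, and with a pseudocount of 8 (adjusted p = 0.066) or the low-spread direction as a covariate (0.0527).

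Signalling genes gave calls in both directions. Of 24 Wnt pathway genes 5 rose and 1 fell, against 8.81% higher and 15% lower over all genes, with a median of 0.00. Nkd1, a feedback inhibitor induced by Wnt, had 337, 336, 318 and 286 at 21 days and 139, 155, 215 and 134 at 12 days (1.01 ± 0.17, adjusted p = 0.000197). Wls, the carrier that secretes Wnt ligands, had 3209, 3163, 2993 and 2565 at 21 days and 2199, 2213, 2199 and 2023 at 12 days (0.46 ± 0.08). Lgr5, an R-spondin receptor, had 334, 131, 204 and 198 at 21 days and 164, 108, 102 and 88 at 12 days (0.86 ± 0.25, adjusted p = 0.015). It was not called without 12 day replicate 4 (adjusted p = 0.053) or 21 day replicate 1 (0.0686). Wif1, a secreted Wnt inhibitor, had 267, 232, 183 and 350 at 21 days and 450, 820, 954 and 500 at 12 days (-1.36 ± 0.34). A further secreted Wnt inhibitor, Sfrp4, had 15, 46, 37 and 72 at 21 days and 270, 281, 447 and 362 at 12 days (-3.14 ± 0.38). The Wnt target Axin2 was not called (-0.13 ± 0.18). The 5 higher members became 3 with table totals, without 12 day replicate 1 or without 21 day replicate 1, and 2 without 12 day replicate 4.

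In the BMP pathway 6 of 22 genes rose, with a median of 0.09. Id4, a transcriptional inhibitor induced by BMP, had 533, 483, 325 and 491 at 21 days and 263, 266, 207 and 179 at 12 days (0.99 ± 0.18). Smad6, an inhibitory SMAD, had 702, 830, 811 and 792 at 21 days and 513, 602, 614 and 532 at 12 days (0.47 ± 0.10). Nog, the extracellular inhibitor noggin, rose by 0.68 ± 0.18. The ligand genes Bmp2 (0.01 ± 0.12) and Bmp7 (0.09 ± 0.09) were not called. With table totals 3 were higher. In the hedgehog pathway 1 of 8 genes rose, against 8.81% of all genes. This was the transcription factor gene Gli2 (0.61 ± 0.11), and the target Ptch1 was not called (0.13 ± 0.14). A second rose without 21 day replicate 2, and 1 fell without 12 day replicate 1.

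Limb patterning and blastema genes gave 6 lower and 1 higher of 24, against 15% lower and 8.81% higher over all genes. The median was -0.09. Meis1, a transcription factor of proximal limb identity, had 253, 380, 269 and 325 at 21 days and 654, 515, 445 and 649 at 12 days (-0.88 ± 0.14, adjusted p = 9.21e-05). Hoxa11, a limb segment gene, had 34, 33, 23 and 28 at 21 days and 37, 65, 107 and 49 at 12 days (-1.01 ± 0.24). Tbx3 was lower (-0.85 ± 0.25), but not called without 12 day replicate 4 (adjusted p = 0.0535) or 21 day replicate 1 (0.0611). Sall1 was lower too (-1.08 ± 0.31), but not called without 12 day replicate 3 (adjusted p = 0.0614) or 21 day replicate 1 (0.0511). Msx1, a homeobox gene needed for digit tip regrowth in the mouse, had 506, 514, 522 and 646 at 21 days and 375, 677, 768 and 453 at 12 days, with a change of 0.00 in size (± 0.23) whose sign varied with the setting. It had 1062, 1017, 1193 and 1134 at 14 days, above every library of both other days. The lower count was 3 without 12 day replicate 3 and 2 without 21 day replicate 1, and the higher one was 0 without 12 day replicate 1 or 2 or 21 day replicate 3 or 4.

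Metabolic groups were mixed. Of 18 hypoxia and glycolysis genes 3 rose and 2 fell, against 8.81% higher and 15% lower over all genes. Pdk1, which keeps pyruvate out of mitochondria, had 3854, 3800, 2808 and 4152 at 21 days and 2079, 2341, 2822 and 2662 at 12 days (0.56 ± 0.14), and the hypoxia-induced gene Ndrg1 rose by 0.44 ± 0.10. Pkm, pyruvate kinase, changed by -0.45 ± 0.13, a call that ended without 12 day replicate 4 (adjusted p = 0.0574), and Car9, a carbonic anhydrase, by -0.75 ± 0.22, ending without 12 day replicate 3 (adjusted p = 0.0567). Each of those libraries took the lower count to 1. In the retinoic acid list 1 of 11 rose and 2 fell. Dhrs3, a retinal reductase, rose by 0.31 ± 0.08 but was not called with table totals (adjusted p = 0.085). Rara, a retinoic acid receptor, changed by -0.24 ± 0.08. It was not called without 12 day replicate 1, 2 or 4 or 21 day replicate 1 or 4 (adjusted p 0.0529 to 0.115), nor with median-ratio factors (adjusted p = 0.0727), only the compared groups fitted (0.107) or a replicate block (0.054).

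Markers of further cell types the sample could hold were few or scattered. Of 12 erythroid markers 7 are in the table and all 7 had a positive change. Their summed level ran from 1329 to 16015 at 21 days and from 460 to 14041 at 12 days, so the groups overlapped widely. The 1 call, Hemgn (1.11 ± 0.39), ended without 12 day replicate 2 or 4 or 21 day replicate 1, 2 or 4. Of 10 skeletal muscle markers 3 are in the table, with 1 lower, Acta1 (-2.25 ± 0.59), at a mean of 8.00 at 21 days and 55.8 at 12 days; without 21 day replicate 4 there were 2. Of 12 adipocyte markers 5 are in the table, with Pck1 higher, at a mean of 145.5 at 21 days and 42.2 at 12 days, though 0 were called without 12 day replicate 2, 3 or 4 or 21 day replicate 2 or 4. Schwann cell (9 measured), melanocyte (2), lymphocyte (1) and mitochondrial (7) genes gave 0 calls (limma; 2 Schwann cell genes and 1 melanocyte gene had an unadjusted p under 0.05), except 1 Schwann cell gene without 12 day replicate 2. The part of these cells in other results was not tested.

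**Figure D4:**
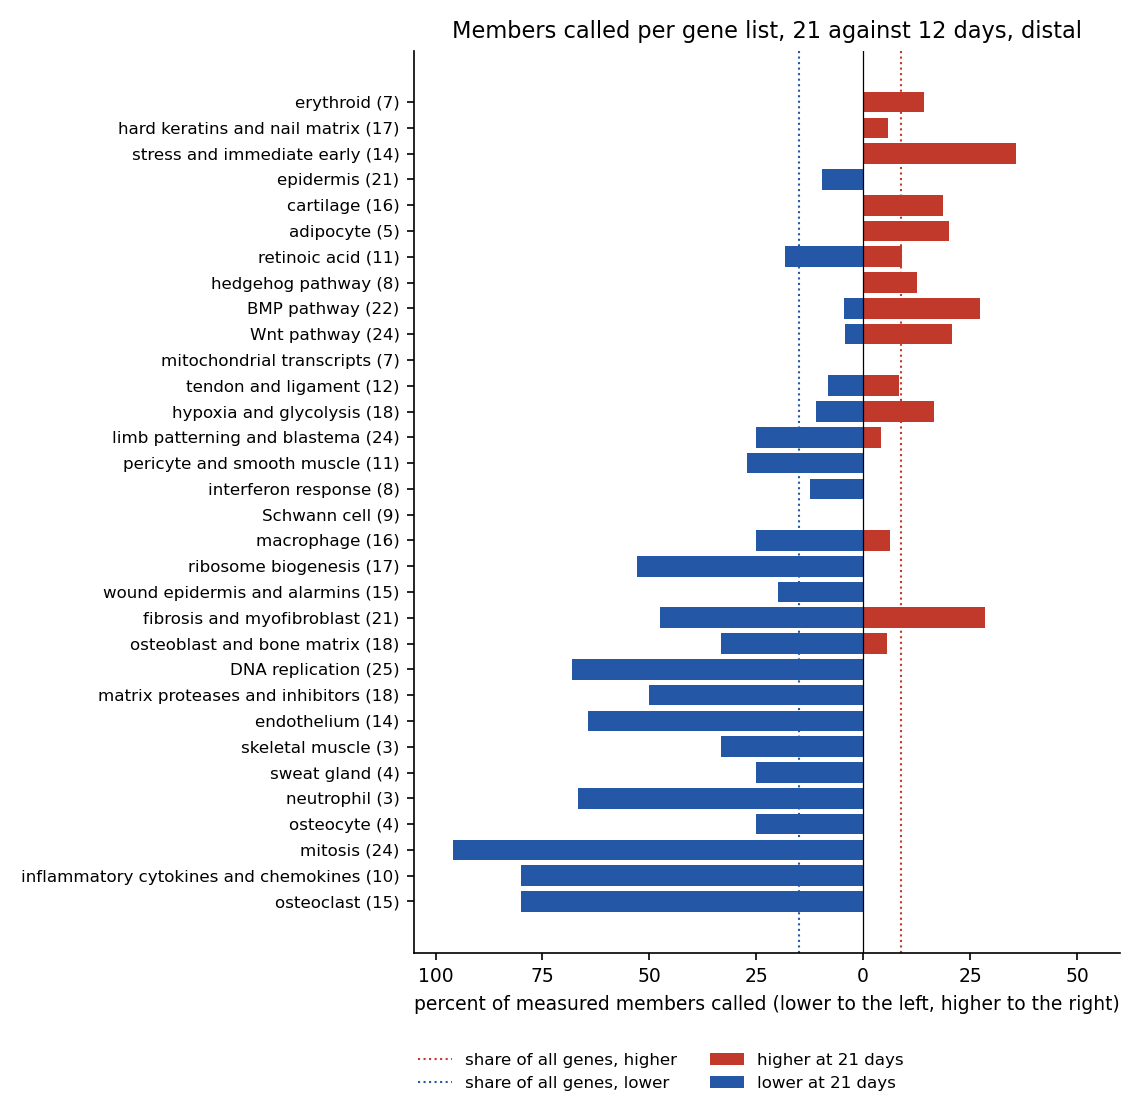
Share of the measured members of each gene list called higher (red, to the right) or lower (blue, to the left) at 21 against 12 days after distal amputation, for lists with at least 3 members in the table, whose number is in parentheses. Dotted lines mark the share over all genes, 8.81% higher and 15% lower. Mitosis, osteoclast and cytokine genes reach furthest to the left.

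Whether a change was particular to distal amputation was tested as the 21 minus 12 day change after distal amputation minus that after proximal amputation. This difference was called for 2234 genes (14.8%), 1117 positive and 1117 negative (7.42% each). With table totals the positive ones numbered 595. Of the 1326 genes that were higher at 21 days after distal amputation, 390 also had a positive called difference, 4 a negative one, and for 932 the difference was not called. Of the 2258 lower genes, 601 had a negative called difference, 97 a positive one, and 1560 none. The distal and proximal changes of each list are given side by side, since the difference holds both.

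Genes of dividing cells differed between levels. All 24 mitosis genes and 21 of 25 replication genes had a negative called difference, with median changes of -0.98 after distal and 0.11 after proximal amputation in mitosis, and of -0.64 and 0.27 in replication. Mki67 had 3093, 3684, 4556 and 4092 at 21 days and 6382, 5185, 7112 and 5871 at 12 days after distal amputation, and 5787, 4455, 5204 and 6888 at 21 days and 3973, 4091, 3204 and 4221 at 12 days after proximal amputation. The difference was -1.19 ± 0.19 (adjusted p = 0.00025). The highest group means were those of the distal 12 day (6138) and proximal 21 day (5584) libraries. Orc1 followed the same order (-1.71 ± 0.22), and 14 of 17 ribosome biogenesis genes had a negative difference.

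Inflammatory genes differed likewise. Of 10 cytokine genes 7 had a negative difference, with medians of -1.81 after distal and 0.81 after proximal amputation. Il1b had 28, 58, 4 and 16 at 21 days and 13, 13, 9 and 6 at 12 days after proximal amputation, levels near those of the distal 21 day libraries, and its difference was -5.45 ± 0.83 (adjusted p = 0.000166). S100a9 had 96, 3080, 3103 and 98 at 21 days and 161, 107, 44 and 151 at 12 days after proximal amputation, where only proximal 21 day replicates 2 and 3 were high (-6.28 ± 1.70, adjusted p = 0.0149). S100a8 was high in those same libraries (-5.13 ± 1.35). Nlrp3 (-4.19 ± 0.52), Mmp3 (-4.17 ± 0.81), Cxcl5 (-4.00 ± 1.07) and Slpi (-3.99 ± 0.85) completed the largest negative differences.

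Osteoclast and endothelial falls were not shown to differ between levels. The osteoclast medians were -2.61 after distal and -1.27 after proximal amputation, and 0 of 15 members had a negative called difference (4 at an unadjusted p under 0.05, limma) and 1, Ostm1, a positive one. For the endothelium the medians were -0.72 and -0.38, with 0 of 14 called and 3 at an unadjusted p under 0.05 (limma). Ibsp changed by -2.73 ± 0.55 after distal and by -2.56 ± 0.55 after proximal amputation, a difference of -0.17 ± 0.78, and Sp7 by -2.11 ± 0.48 and -1.94 ± 0.48 (-0.17 ± 0.67). These errors allow differences of either sign. Immediate early genes had 0 called differences (2 at an unadjusted p under 0.05, limma), with medians of 0.39 after distal and 0.49 after proximal amputation.

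Positive differences were found in fibrous, cartilage and limb patterning genes. Of 21 fibrosis genes 13 had a positive difference, with medians of -0.48 after distal and -1.56 after proximal amputation, and of 16 cartilage genes 8 did, with medians of 0.22 and -1.19. Col10a1 had 535, 196, 196 and 1340 at 21 days and 87, 425, 66 and 332 at 12 days after proximal amputation, overlapping, and its difference was 4.53 ± 0.92 (adjusted p = 0.00198). Acan had 672, 318, 363 and 1111 at 21 days and 7898, 4605, 2721 and 3031 at 12 days after proximal amputation, while its distal change was not called (difference 2.61 ± 0.60). Col8a2 (2.77 ± 0.40), Ogn (2.42 ± 0.36), Col8a1 (2.36 ± 0.27) and Lsp1, an actin-binding leukocyte protein gene (2.33 ± 0.26), had large differences too. In Lsp1 the distal change itself (0.62 ± 0.18) was not called without 12 day replicate 1 (adjusted p = 0.057) or 21 day replicate 1 (0.0676). For Crnn the difference was 3.48 ± 1.00 (adjusted p = 0.0219), and was not called without proximal 21 day replicate 3 (adjusted p = 0.0523). Of 24 limb patterning genes 10 had a positive difference (11 at an unadjusted p under 0.05, limma) and 0 a negative one at either threshold. Msx1 was among the positive ones (1.15 ± 0.33), and the medians were -0.09 after distal and -1.11 after proximal amputation. Of the Wnt genes 6 had a positive difference, with Nkd1 at 1.69 ± 0.24 and Wls at 0.84 ± 0.11.

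**Figure D5:**
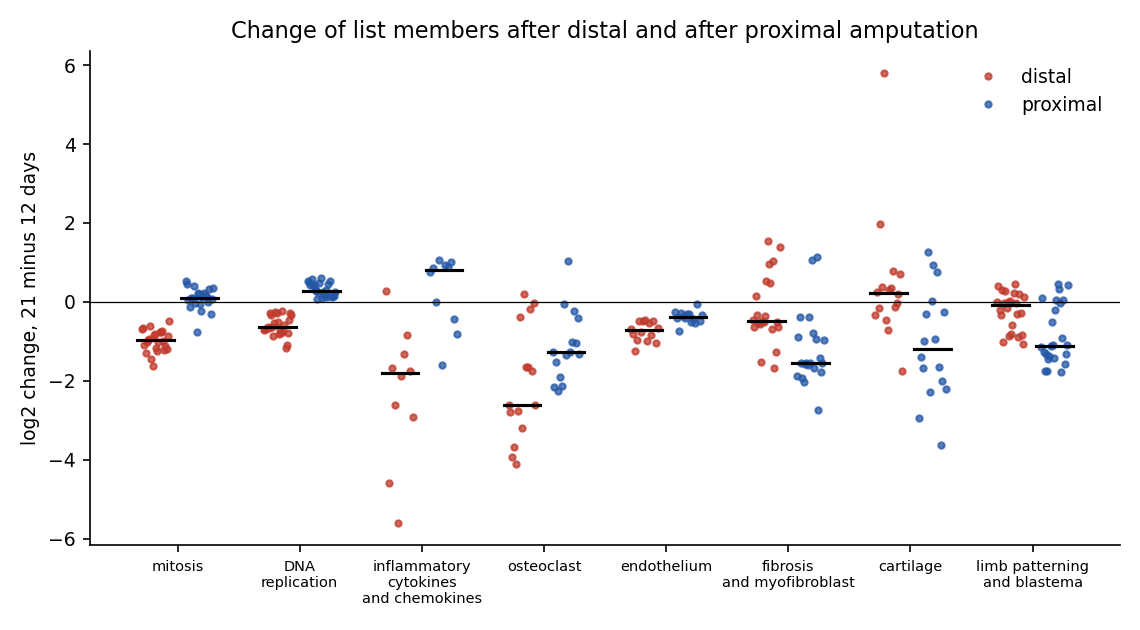
Change at 21 minus 12 days (log2 of value + 1) of each measured member of 8 gene lists after distal (red, left) and after proximal amputation (blue, right). Points are genes and bars are list medians. Mitosis medians are -0.98 and 0.11, cytokine medians -1.81 and 0.81, and cartilage medians 0.22 and -1.19.

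The 14 day distal libraries place these changes in time. Of the 1326 genes called higher at 21 days, 769 had a 14 day mean between those of the other days, 360 were lower at 14 than at 12 days and 197 were higher at 14 than at 21 days. Of the 2258 called lower, 1234 lay between, 903 were higher at 14 than at 12 days and 121 were lower at 14 than at 21 days. Among those between, 470 of the higher genes were nearer their 12 day mean and 299 nearer their 21 day mean. For the lower genes these counts were 824 and 410. List medians for 14 against 12 days and 21 against 14 days were -1.32 and -0.72 in cytokine genes, -0.57 and -1.36 in osteoclast genes and -0.37 and -0.67 in mitosis genes. Of the 8 cytokine genes called lower, 5 changed more before 14 days, among them Il1b and Cxcl1, and 3 after, namely Cxcl5, Ccl2 and Lif. Of the 12 osteoclast genes called lower 11 changed more after 14 days, and of the 23 mitosis genes 16 did. The difference between these steps was not tested. The highest mean was at 14 days for 12 of 16 cartilage genes, with medians of 1.22 and -1.18 for these steps, for 19 of 21 fibrosis genes (0.83 and -1.13) and for all 14 endothelial genes (0.35 and -1.08). The share of all genes with their highest mean at 14 days was not counted. These counts, and that of the bone genes, thus have no background to compare with.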

How the data were processed

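RNA was sequenced from 24 digit tip libraries in 6 groups of 4, of which distal tips at 21 and 12 days are compared here. Reads were processed by the authors with cutadapt, aligned to mm10 with STAR 2.5.4b and assigned to genes with featureCounts 1.6.3 (Subread), tools and build being named in the submitters' processing notes. Use of strand in counting was not stated, so values of overlapping or antisense genes are uncertain. The deposited values of 15055 genes were treated as a score: they are whole numbers, but over the 9650 genes with all values above 100 their least spread across libraries (natural log) was 0.00675, against 0.0453 from Poisson sampling, so they are not raw counts. They look scaled and rounded, a step no label records. Table totals of the 8 libraries ran from 16.1 to 19.4 in units of 1e+06 and upper quartiles of all 24 from 902.5 to 930.5. Sequencing depth cannot be read from such values, so counting intervals are not given. Only 0.194% of that least spread lies between groups, so the p-values may be too small.

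Values were fitted as log2(value + 1) with limma 3.58.1 in R 4.3.3 (lmFit, eBayes with trend) over all 24 libraries with 6 group means and no filter, with Benjamini-Hochberg adjustment over 15055 genes. The same fit gave the distal minus proximal difference. The fit was tested on simulated data, drawn as independent normal noise for each gene. Those data lack the direction of least spread described above, so the test does not bear on its effect on the p-values. The scale understates changes of low genes. Alternatives were other scalings, pseudocounts of 0.5 and 8, a mean value of at least 50, only the compared groups, a replicate block, sample quality weights, the low-spread direction as a covariate, and each library left out in turn.

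The gene lists were chosen with earlier results of these data known. Genes named by rule, 105 in all, are the 15 largest rises and 15 largest falls among called genes without overlap and with a group mean of at least 100, the 4 called members with the smallest p of lists with at least 3, a fixed panel, and the 6 largest called differences between levels in each direction. Other list members are named where a list is gone through, and Cdc20 as the fourth mitosis promoter. Coordinates and promoters are from RefSeq GRCm38.p6, in which 451 of 460 listed genes matched by symbol. Some genes of the lists and of the rule are not reported here.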

Additional observations from a re-analysis of the deposited data

Results flagged for a closer look

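In 15 of 210 groups of 4 libraries tested, 1 library stood apart from the other 3 by Dixon's criterion, where chance gives about 1 in 20. At 21 days the library that stood apart was replicate 4 for Cxcl5 (5, the others 3), Dcstamp (56, the others 6 to 12), Mmp9 (2789, the others 589 to 798), Cdk1 (439, the others 338 to 344), Msx1 (646, the others 506 to 522) and Col8a2 (2139, the others 1291 to 1384). It was replicate 2 for Slpi (55, the others 29 to 32), replicate 3 for Csf3r (45, the others 7 to 9) and replicate 1 for Acan (2302, the others 729 to 996). At 12 days it was replicate 3 for Kcnj8 (131, the others 54 to 60), Sall1 (62, the others 30 to 35) and Rara (384, the others 449 to 458), replicate 2 for Dcstamp (106, the others 333 to 346), replicate 1 for Utp20 (1529, the others 1316 to 1352) and replicate 4 for Wls (2023, the others 2199 to 2213).

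Of the 105 genes named by rule, some of which are not reported, 46 are listed here. Their 21 minus 12 day change differed between distal and proximal amputation by the interaction test in limma, as for 14.8% of all genes. The rule picked large distal changes and the largest called differences, so a higher share among named genes is partly built in. Acan, Postn, Msx1, S100a8, Krt17 and Myc were not called in the distal comparison itself. Values are distal minus proximal changes of log2(value + 1). Among inflammatory, alarmin and protease genes it was negative: Cxcl5 -4.00, Il1b -5.45, Il11 -2.11, Lif -1.32, Nlrp3 -4.19, Ccr1 -2.25, Csf3r -3.31, S100a9 -6.28, S100a8 -5.13, Slpi -3.99, Lcn2 -3.95, Krt17 -1.58, Mmp3 -4.17 and Mmp13 -3.31. Cell division and ribosome biogenesis genes were also negative, with Orc1 at -1.71, Mcm4 -1.10, Rrm2 -0.93, Cdt1 -1.06, Kif20a -1.11, Prc1 -0.89, Aurka -0.88, Cdk1 -1.14, Mki67 -1.19, Nop2 -0.50, Bop1 -0.47, Utp20 -0.77, Dkc1 -0.70 and Myc -0.79. So was Sfrp4 (-2.67). Matrix and cartilage genes were positive, with Col10a1 at 4.53, Col9a2 2.96, Acan 2.61, Col8a1 2.36, Col8a2 2.77, Ogn 2.42, Cthrc1 1.09 and Postn 1.42. Signalling and other genes that were positive were Nkd1 (1.69), Wls (0.84), Lgr5 (1.30), Smad6 (0.94), Msx1 (1.15), Ndrg1 (0.63), Crnn (3.48), Trpc6 (1.97) and Lsp1 (2.33).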

How the results depend on the processing

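Over the named genes, 1711 of 1778 values under another setting kept their direction and side of the threshold, 55 missed it, 2 newly passed and 10 changed sign. With table totals 675 genes were higher at 21 days (1326 as deposited) and 595 differences between levels were positive (1117); the cause was not tested. Higher genes made up 20.6% of calls under that scaling and 48.6% with median-ratio factors. Leaving out each library in turn gave 2919 to 3208 calls, 975 to 1162 higher and 1894 to 2055 lower; by over 2-fold, 100 to 137 were higher and 441 to 546 lower. The differences between levels numbered 1729 to 2178, with 869 to 1101 positive and 860 to 1117 negative. Signs turned for genes that were not called: without single libraries Bglap ran from -1.27 to 0.259, Lef1 from -0.0423 to 0.568 and Msx1 from -0.182 to 0.162, and Msx1 was at 0.0381 with median-ratio factors and 0.0523 with quality weights. By over 2-fold, 77 genes were higher and 332 lower with the mean filter of 50. Replicate numbers of 21 and 12 day distal libraries are shared but did not pair them (correlations of deviations 0.03, 0.17, -0.12 and 0.03, and not every library was closest to its own number). With the replicate block 3746 genes were called, 1419 higher and 2327 lower, and 2360 differences. Depth is unknown, which limits what low values can show.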
